A study of Mus musculus with 35 samples.

Results

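The genes described here are those of the leukemia inhibitory factor (LIF) receptor and of Stat3: Lif, the cytokine; Lifr and Il6st, the chains of its receptor; Jak1, the kinase bound to them; Stat3, the transcription factor the kinase activates; and Socs3, a feedback inhibitor. Their probes were taken by the gene name that the array design gives each probe. Of the 6 genes, 5 had at least 1 probe of their name, among 27962 gene names on the array, and Lif had none. The 5 genes were read by 10 probes on 19 spots of each array, of 41174 gene probes in all, and every one of the 10 was tested. Lifr had 4 probes, Jak1 and Stat3 had 2 each, and Il6st and Socs3 had 1 each. They are numbered within a gene by their mean level, probe 1 being the brightest over clones and ES cells.

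LIF brings the LIF receptor chain Lifr and the shared chain gp130, the product of Il6st, together at the cell surface. The Janus kinases on both chains then phosphorylate Stat3, which enters the nucleus and induces its targets, Socs3 among them, and the Socs3 protein in turn blocks the kinases at gp130. In mouse ES cells this pathway sustains self-renewal, and LIF is added to their medium for that reason. Gp130 and Jak1 also serve other cytokines of the interleukin-6 family, and fibroblasts use them too.

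Total RNA of 30 iPS clones, 2 ES cell lines and 3 kinds of source cells was labelled with Cy3 and hybridized to Agilent mouse arrays, 1 array for each clone, line or source. The source cells came from 6-week-old mice that carry a Nanog-GFP-IRES-Puro reporter. PαS cells are bone marrow mesenchymal stem cells sorted as CD45-Ter119-PDGFRα+Sca-1+, OP cells are osteo-progenitors sorted as CD45-Ter119-PDGFRα-Sca-1-, and TTF are cultured tail tip fibroblasts. Retroviruses brought Oct3/4, Sox2 and Klf4 (3F) or these and c-Myc (4F) into each source, together with DsRed. Each of the 6 groups held 5 clones: 4F-PαS-iPS, 3F-PαS-iPS, 4F-OP-iPS, 3F-OP-iPS, 4F-TTF-iPS and 3F-TTF-iPS. All clones were selected with puromycin as GFP-positive and DsRed-negative, and were grown on mitomycin C-treated, puromycin-resistant SNL feeder cells, a fibroblast line, with LIF from conditioned medium. The ES arrays are of the lines EB-3 and RF8. Whether clones of a group are sister colonies is not given in the sources used here, so the p-values measure the spread between these clones.

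Levels are log2 of the background-subtracted intensity relative to the 75th percentile of each array, so that 0 is that percentile and 1 unit is a 2-fold difference. The 30 clones were scanned in 1 session on 8 slides. EB-3 and the source cells shared another session and RF8 had its own, with other versions of the image analysis software. Differences of ES or source cells from the clones thus cannot be told apart from those of their sessions. Between 56.6% and 71.1% of probes were well above background on an array. The clones 4F-OP-iPS #1, #2 and #3 and 4F-TTF-iPS #1 stood apart: their Nanog levels were -6.13, -3.30, -8.24 and -6.06, against -0.89 or more in the other 26 clones, and all 4 carry a label of iPS cells. The summed level of 18 genes of fibroblasts, the cell type of the feeders, was 240 to 976 in the clones (on a linear scale where the 75th percentile of the array is 1), 19.0 in EB-3, 211 in RF8 and 871 to 2087 in the source cells. Each of the 18 was above background on at least 1 array of every group. In bulk samples such as these, fewer cells of a type and less RNA per cell cannot be told apart.

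Lifr was the member whose level differed most between clones. On probe 1 it ran from -0.77 to 3.14 over the 30 clones, on probe 2 from -2.0 to 0.92, on probe 3 from -2.45 to 0.68 and on probe 4 from -3.29 to -0.59. All 4 probes were above background on all 35 arrays. Over the 30 clones probes 2 and 3, which lie side by side, had r = 0.99 with each other, and probe 1 had r = 0.80 to 0.85 with the others. The oligonucleotides of probes 1 and 3 are shown because probe 3 passed the test between PαS- and OP-derived clones and probe 1 did not. Each of them has an open reading frame throughout in 1 of its 3 frames, and probe 1 spans 807 bases of the genome with its 60 bases, so that it crosses an intron (mouse build mm7, plus strand, chr15:7011508-7012314 for probe 1 and chr15:7017869-7017928 for probe 3).
Lifr probe 1: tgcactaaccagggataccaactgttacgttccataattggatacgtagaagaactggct
Lifr probe 3: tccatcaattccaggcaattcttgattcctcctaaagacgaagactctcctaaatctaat

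In the 3F-PαS-iPS clones Lifr probe 1 was 0.55, 1.35, 2.64, 2.06 and 2.43 in clones #1 to #5. The 4F-PαS-iPS clones had -0.09, 1.05, 0.19, -0.77 and 0.65. Thus 4 of the 5 clones made without c-Myc lay above every clone made with it. The 4F-OP-iPS clones had -0.54, 3.14, 0.30, 0.03 and -0.65, where clone #2 stood far above its group. The 3F-OP-iPS clones had -0.02, 1.40, 0.29, -0.69 and 0.58. The OP-derived groups overlapped throughout. The TTF-derived clones were tighter, with 2.07, 1.45, 1.14, 1.25 and 0.74 in 4F-TTF-iPS and 1.57, 1.53, 1.20, 1.32 and 1.57 in 3F-TTF-iPS. EB-3 had -0.93 and RF8 -1.88, both below every clone.

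By mean level on probe 1 the order was 3F-PαS-iPS (1.80 ± 0.86, SD, n = 5), 3F-TTF-iPS (1.44 ± 0.17), 4F-TTF-iPS (1.33 ± 0.49), 4F-OP-iPS (0.46 ± 1.55), 3F-OP-iPS (0.31 ± 0.77), 4F-PαS-iPS (0.21 ± 0.70) and ES (-1.40). None of the neighbours among the clone groups differed by more than the larger SD of the pair. The gap of 1.61 from 4F-PαS-iPS to ES did. On probes 2, 3 and 4 the group with the highest mean was again 3F-PαS-iPS, at 0.47, 0.19 and -1.31, and the lowest group of clones was 3F-OP-iPS, at -1.48, -1.89 and -2.79.

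**Figure D1:**
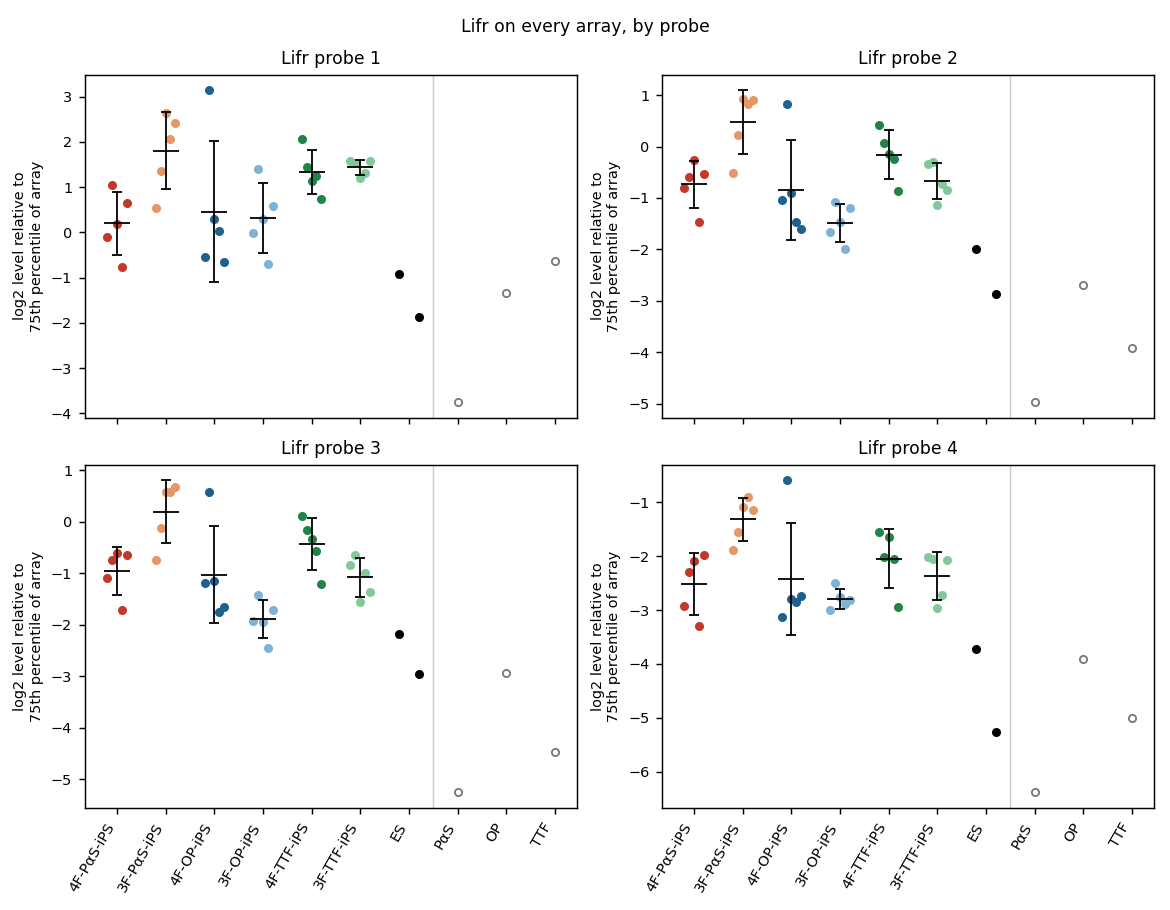
Level of Lifr on each of its 4 probes, as log2 relative to the 75th percentile of the array, for every clone (filled points by group), ES line and source array (open points); horizontal lines are the means and bars the SD of 5 clones. The 3F-PαS-iPS clones have the highest group mean on each probe, clone 4F-OP-iPS #2 stands above its group, and on probes 1 and 4 both ES lines lie below every clone.

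Lifr was higher in PαS- than in OP-derived clones on probes 2 and 3, by 1.03 (SE 0.25) and 1.08 (SE 0.25) on the log2 scale, or about 2-fold. The adjusted p was 0.0252 and 0.0195 in the limma fit across all probes with Benjamini-Hochberg adjustment, and moving clones between the groups gave permutation p = 0.0115 and 0.00928 (two-sided, 10 against 10). On probe 2 the lowest, median and highest of the 10 PαS-derived clones were -1.47, -0.39 and 0.92, and those of the 10 OP-derived clones -2.0, -1.33 and 0.82. The groups overlapped, with 3 PαS-derived clones above every OP-derived one. By group means the difference lay mainly in the 3F clones. Between 3F-PαS-iPS and 3F-OP-iPS it was 1.96 on probe 2 and 2.08 on probe 3, with all 5 PαS-derived clones above every OP-derived one. Between the 4F groups it was 0.10 and 0.07, where the 4F-OP-iPS means include clone #2, at 0.82 and 0.58. The medians were -0.60 and -0.75 in 4F-PαS-iPS and -1.04 and -1.18 in 4F-OP-iPS. Probes 1 and 4 differed the same way over both sets of factors by 0.62 (SE 0.37) and 0.69 (SE 0.27) and did not pass, with adjusted p = 0.337 and 0.130.

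These 2 of 10 member probes passed an adjusted p of 0.05 and the 2-fold minimum between PαS- and OP-derived clones, where 1.6% of all probes tested did. By the brightest probe of each gene, 0 of 5 genes passed. The median difference over the 10 probes was 0.24, against 0.03 over all probes tested. For Il6st, Jak1, Stat3 and Socs3 the differences lay between -0.08 and 0.27. The summed fibroblast level was 312 to 626 (median 391.9) in the PαS-derived and 240 to 976 (median 417) in the OP-derived clones. In the 3F clones 7 blood cell genes summed to 1.58 to 2.95 in PαS- and 0.877 to 1.32 in OP-derived clones. There 3 endothelial genes summed to 1.20 to 1.95 and 0.351 to 0.74. The other marker lists overlapped between the 3F groups, and all lists did between the 4F groups. The part of these lists in the difference was not tested.

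The size of the difference varied with the clones compared. On the 3 slides that held both sources, probe 2 differed by -0.29 (2 against 2 clones), 0.73 (1 against 3) and 2.24 (2 against 2). The first 2 of these slides held 4F and the last 3F clones of both sources, so that slide and factors cannot be told apart in these values. With the slide as a fixed block it was 1.20 with an adjusted p of 0.0537, while probe 3 kept its call at 1.22 and 0.0434. With normexp background correction both fell under the 2-fold minimum, at 0.90 and 0.95. Without clone 4F-OP-iPS #2 they were 1.24 and 1.28, and probes 1 and 4 were 0.96 (adjusted p = 0.0237) and 0.92 (adjusted p = 0.00603), still under 2-fold, so that on the adjusted p alone all 4 passed. Without the 4 clones low in Nanog probes 2 and 3 were 1.38 and 1.42. Leaving out 1 clone ended the call of probe 2 for 9 of 32 arrays, namely 4F-PαS-iPS #3, 3F-PαS-iPS #3, #4 and #5, 4F-OP-iPS #3, #4 and #5, and 3F-OP-iPS #1 and #4, at 0.94 to 1.02, and that of probe 3 without 4F-OP-iPS #4 or #5, at 0.99 and 0.998.

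Between PαS- and TTF-derived clones 0 of 10 member probes passed in limma, against 0.496% of all probes, and 0 had an unadjusted p under 0.05. Moving clones between the groups gave 2 probes with a permutation p under 0.05, both of Jak1, at differences of 0.18 and 0.19. Between OP- and TTF-derived clones again 0 of 10 passed, against 0.0217% of all probes, with 3 under an unadjusted p of 0.05 in limma and the same number by permutation, all of Lifr. The difference on Lifr probe 1 was -1.0 (SE 0.37) with an adjusted p of 0.352. Without clone 4F-OP-iPS #2 it was -1.34 with an adjusted p of 0.0105, so that 1 clone decided this call.

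When clones made with 3 and with 4 factors were compared within the PαS source, the means of all 4 Lifr probes were greater in 3F clones, by 1.60, 1.21, 1.15 and 1.20 (SE 0.52, 0.36, 0.36 and 0.38), and none passed the adjusted threshold. Their adjusted p was 0.153, 0.137, 0.143 and 0.147 in limma, and the exact permutation p of 5 against 5 clones was 0.0238, 0.0159, 0.0238 and 0.00794, the last being the smallest that 252 arrangements can give. On probe 4 the groups did not overlap. Here 0 of 10 member probes passed, where 0.0181% of all probes did, with 5 probes under an unadjusted p of 0.05 and 6 by permutation. The median over the 10 probes was 0.49, against 0.00 over all. With 1 array left out in turn, the only Lifr call gained was that of probe 2 without clone 4F-PαS-iPS #3 (1.33, adjusted p = 0.0492). The summed fibroblast level was 312 to 393 in 4F-PαS-iPS and 346 to 626 in 3F-PαS-iPS. The summed level of 7 ES cell genes was 30.8 to 80.7 in 4F-PαS-iPS and 44.6, 24.9, 18.1, 15.9 and 23.4 in 3F-PαS-iPS, where clones #2 to #5, those with Lifr above every 4F clone on probe 1, lay below every 4F clone. The part of either list in the Lifr difference was not tested, and the groups shared no slide, so that slide and factors cannot be told apart within this source.

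In the OP and TTF sources 7 of the 8 Lifr differences were below 0, or 5 of 8 without clone 4F-OP-iPS #2, and none passed. The 3F minus 4F difference on the 4 probes was -0.14, -0.64, -0.86 and -0.37 in OP-derived and 0.11, -0.52, -0.65 and -0.32 in TTF-derived clones, with adjusted p of 0.130 or more. Without clone 4F-OP-iPS #2 those in OP-derived clones were 0.53, -0.23, -0.46 and 0.091, so that probes 1 and 4 turned sign. The test of the difference between sources gave 1.57 to 2.01 for PαS against OP (adjusted p = 0.0535 to 0.202) and 1.49 to 1.80 for PαS against TTF (adjusted p = 0.0738 to 0.267). Without clone 4F-OP-iPS #2 the PαS against OP values were 1.07, 1.44, 1.61 and 1.11 (adjusted p = 0.0721 to 0.328), while against TTF probes 2, 3 and 4 passed (adjusted p = 0.0308, 0.0279 and 0.0472). Probe 3 passed for PαS against OP without ES arrays in the fit (2.01, adjusted p = 0.0425) and with the slide as a random block (2.19, adjusted p = 0.0435). It also passed with 9 of 32 arrays left out in turn, at 2.00 to 2.25, and over all 32 its value was 1.61 to 2.25. With the slide as a fixed block it was 2.16 (adjusted p = 0.214) and without the 4 clones low in Nanog 1.34 (adjusted p = 0.637).

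Il6st, which encodes gp130, had a higher mean in 3F than in 4F clones of each source. The 4F-OP-iPS clones had 0.93, 2.08, 1.04, 1.49 and 1.07, and the 3F-OP-iPS clones 1.70, 3.14, 1.71, 2.04 and 2.67. Only 4F-OP-iPS #2 reached into the 3F range. The 4F-TTF-iPS clones had 1.48, 1.65, 1.62, 1.47 and 1.93, and the 3F-TTF-iPS clones 2.46, 2.53, 2.51, 2.54 and 1.76, where 4 of 5 lay above every 4F clone. The 4F-PαS-iPS clones had 1.81, 1.46, 2.38, 1.82 and 1.79, and the 3F-PαS-iPS clones, closest together of all groups, 2.33, 2.39, 2.24, 2.21 and 2.18.

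The 3F minus 4F difference of Il6st was 0.93 (SE 0.26, adjusted p = 0.0298, exact permutation p = 0.0397) in OP-derived, 0.73 (SE 0.26, adjusted p = 0.0748, exact p = 0.0159) in TTF-derived and 0.42 (SE 0.26, adjusted p = 0.421, exact p = 0.0397) in PαS-derived clones. The OP value passed on its adjusted p and missed the 2-fold minimum. It passed both after quantile normalization (1.02, adjusted p = 0.0187) and without clone 4F-OP-iPS #2 (1.12, adjusted p = 0.0112), 3F-OP-iPS #1 (1.07) or 3F-OP-iPS #3 (1.07). It missed the threshold with the slide as a random block (0.92, adjusted p = 0.166) and without the 4 clones low in Nanog (0.97, adjusted p = 0.276). The test of the difference between sources gave -0.51, -0.31 and 0.20 with adjusted p of 0.469 or more.

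Between 3F- and 4F-OP-iPS clones 0 of 10 member probes passed both criteria, against 4.5% of all probes, and 1 of 10 passed on the adjusted p alone, against 8.08%. Unadjusted, 3 were under 0.05 in limma and 2 by exact permutation. The summed fibroblast level was 281 to 489 in 4F-OP-iPS and 240 to 976 in 3F-OP-iPS, with medians of 369.5 and 567.4, and 420 to 665 in 4F-TTF-iPS and 358 to 519 in 3F-TTF-iPS, with medians of 513.1 and 457.5. Its part in the Il6st differences was not tested. In TTF-derived clones 0 of 10 passed, against 5.77% of all probes, with 2 under 0.05 unadjusted and 2 by permutation, those of Il6st and Socs3.

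Jak1 and Stat3 varied little between clones. Jak1 probe 1 lay between 2.15 and 3.07 in all 30 clones and probe 2 between 1.26 and 2.47, with r = 0.64 between them. Group means of probe 1 ran from 2.50 in 3F-TTF-iPS to 2.79 in 4F-PαS-iPS, and no neighbours in that order differed by more than the larger SD. Stat3 probe 1, which is printed in 10 spots on the array, lay between 2.61 and 3.69. Its group means ran from 2.92 in 4F-PαS-iPS to 3.25 in 4F-TTF-iPS, again with no neighbours further apart than the larger SD. Stat3 probe 2 was dim, at -6.96 to -4.54, and above background in 12 of 30 clones, and had r = 0.30 with probe 1. No probe of Jak1 or Stat3 passed in a comparison between groups of clones.

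Socs3, the feedback inhibitor and a target of Stat3, lay between 4.35 and 5.77 in the clones. The 4F-PαS-iPS clones had 4.35, 5.71, 4.96, 4.63 and 4.80 and the 3F-PαS-iPS clones 5.26, 5.53, 5.36, 5.73 and 5.44. The 4F-OP-iPS clones had 5.10, 5.28, 5.47, 5.49 and 5.20 and the 3F-OP-iPS clones 4.89, 5.15, 5.19, 4.87 and 4.75. The mean of the 4F group was thus 4.89 against 5.46 in the PαS source and 5.31 against 4.97 in the OP source. The 4F-TTF-iPS clones had 5.52, 5.73, 5.41, 5.77 and 5.04 and the 3F-TTF-iPS clones 5.26, 5.15, 4.93, 4.76 and 4.77.

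The 3F minus 4F difference of Socs3 was 0.57 in PαS-derived (adjusted p = 0.153, exact permutation p = 0.0476), -0.34 in OP-derived (adjusted p = 0.270, exact p = 0.0317) and -0.52 in TTF-derived clones (adjusted p = 0.0738, exact p = 0.0238). None passed the adjusted threshold. The difference between sources was 1.09 (SE 0.27, adjusted p = 0.0502) for PαS against TTF and 0.91 (SE 0.27, adjusted p = 0.0820) for PαS against OP. Of the 10 member probes 0 passed in these tests between sources, against 0.648% of all probes for PαS against OP, 0.583% for PαS against TTF and 0.0% for OP against TTF, with 5, 4 and 0 under an unadjusted p of 0.05. The PαS against TTF value of Socs3 lay at the threshold: it passed with normexp (1.24, adjusted p = 0.0484), with all probes tested (1.09, adjusted p = 0.0485) and in clones alone (1.09, adjusted p = 0.0384), and with 10 of 32 arrays left out in turn (EB-3, RF8, 4F-OP-iPS #1, #2 or #4, 3F-OP-iPS #1, 4F-TTF-iPS #5, 3F-TTF-iPS #1, 3F-PαS-iPS #1 or 4F-PαS-iPS #2). Without 4F-PαS-iPS #2 both source differences passed, at 1.29 (adjusted p = 0.00389) against TTF and 1.11 (adjusted p = 0.0154) against OP. Clones of 1 source with and without c-Myc never lay on a common slide. With the slide as a fixed block, estimated through other groups, the TTF difference was 0.094.

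**Figure D2:**
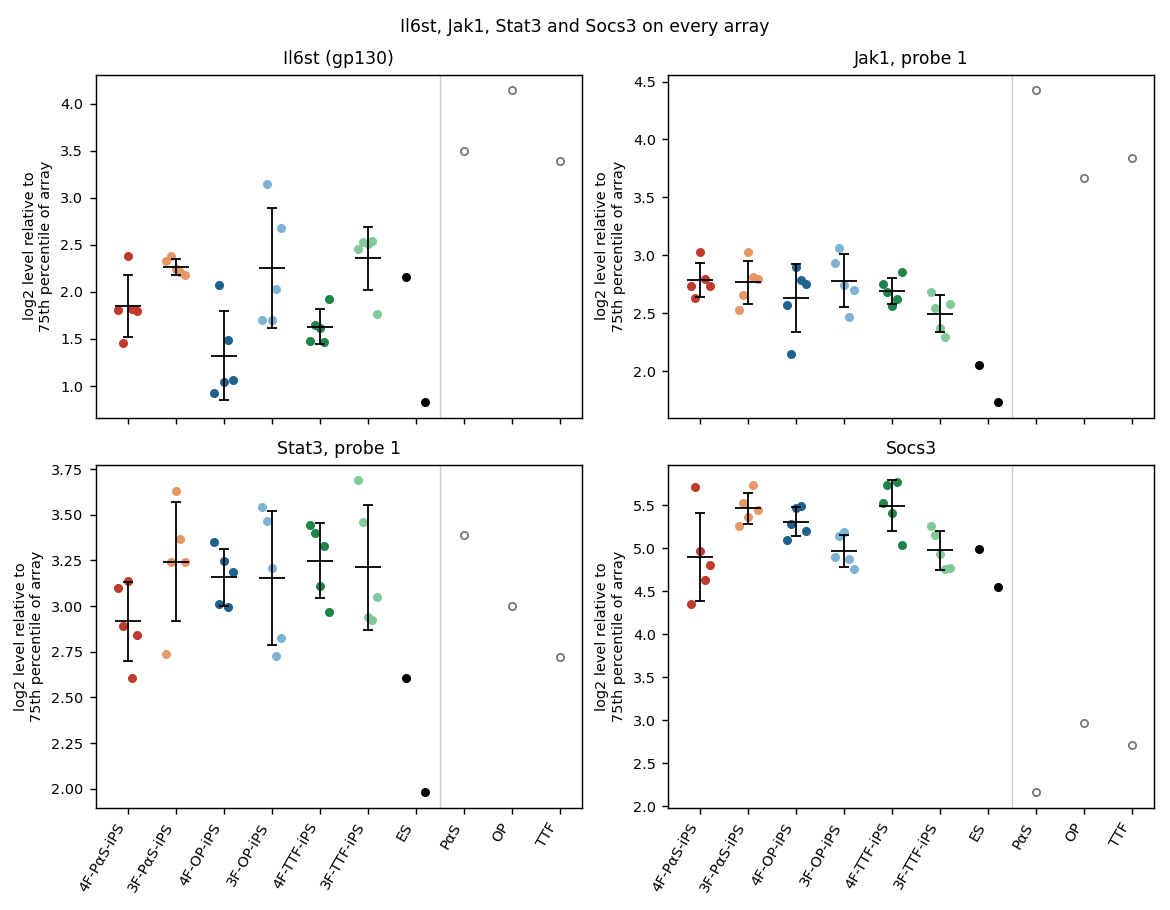
Level of Il6st, Jak1 (probe 1), Stat3 (probe 1) and Socs3 as log2 relative to the 75th percentile of the array, for every clone (filled points by group), ES line and source array (open points); lines are means and bars the SD of 5 clones. Il6st sits higher in the 3F group of each source, Socs3 is lower in all 3 source arrays, and Il6st and Jak1 are higher in them.

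Stat3 binds DNA at a palindrome, written TTCNNNGAA, where N is any base. The RefSeq starts of the 6 genes (build GRCm38.p6, with 2 starts for Lifr) gave 7 windows from 250 bases before to 50 after the start. Searched on both strands, which read the palindrome alike, 1 of the 7 windows held it, that of Socs3, and 2726 of 32851 windows of all genes did (8.3%). The 250 bases before the Socs3 start (minus strand, chr11:117969367-117969616) are shown because Socs3 was named above as a target of Stat3. The match, 154 to 146 bases before the start, is in capitals. A match describes the sequence and was not measured as a bound site.
Socs3 promoter: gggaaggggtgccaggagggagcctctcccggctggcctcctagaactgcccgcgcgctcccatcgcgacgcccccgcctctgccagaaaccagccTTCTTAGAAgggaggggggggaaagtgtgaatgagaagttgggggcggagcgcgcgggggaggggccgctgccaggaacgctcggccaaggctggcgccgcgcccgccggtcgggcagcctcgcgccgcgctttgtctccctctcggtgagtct

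All 4 Lifr probes were higher in the clones than in ES cells, by 2.33 (SE 0.60), 1.86 (SE 0.41), 1.71 (SE 0.41) and 2.25 (SE 0.44) on the log2 scale, which is 3.26- to 5.02-fold. Their adjusted p ran from 0.00012 to 0.00214 in limma. On probes 1 and 4 all 30 clones lay above both ES lines, and on probes 2 and 3 all but 1 did. Jak1 probe 1 was 2.06 in EB-3 and 1.74 in RF8, below all 30 clones, a difference of 0.80 (SE 0.16, adjusted p = 0.000184). Jak1 probe 2 was 1.83 and 2.17, within the range of the clones, with a difference of 0.00 (SE 0.17), so that the Jak1 probes disagreed. Stat3 probe 1 was 2.61 and 1.98, with a difference of 0.86 (SE 0.22, adjusted p = 0.00163).

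Il6st was 2.16 in EB-3 and 0.83 in RF8, a gap of 1.33 between the lines, against 0.93 to 3.14 in the clones. Its difference from ES cells was 0.45 (SE 0.31, adjusted p = 0.219). Socs3 was 4.99 and 4.54, with a difference of 0.42 (SE 0.22, adjusted p = 0.106). RF8 was lower than EB-3 on 9 of the 10 probes, Jak1 probe 2 being the exception.

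Thus 4 of 10 member probes passed against ES cells, all of Lifr and all higher in the clones, where 36.2% of all probes passed, 17.2% higher and 19.0% lower. On the adjusted p alone 6 of 10 did, against 52.4% of all probes. The median over the 10 probes was 0.83, against -0.11 over all probes tested. With RF8 left out, so that EB-3 alone stood for ES cells and was assumed to vary like the clones, Lifr probes 1 and 3 lost their calls (1.85, adjusted p = 0.0762, and 1.32, adjusted p = 0.0627), whereas probes 2 and 4 kept theirs (1.43 and 1.49). Stat3 passed both criteria without EB-3 (1.18, adjusted p = 0.00255) and was 0.55 (adjusted p = 0.128) without RF8. With normexp, Lifr probe 4 was 0.76 (adjusted p = 0.0974). The summed level of the 7 ES cell genes was 247 in EB-3 and 136 in RF8, against 0.984 to 80.7 in the clones. This level, the sessions and the fibroblast level given above differ between clones and ES cells too, and their part was not tested.

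**Figure D3:**
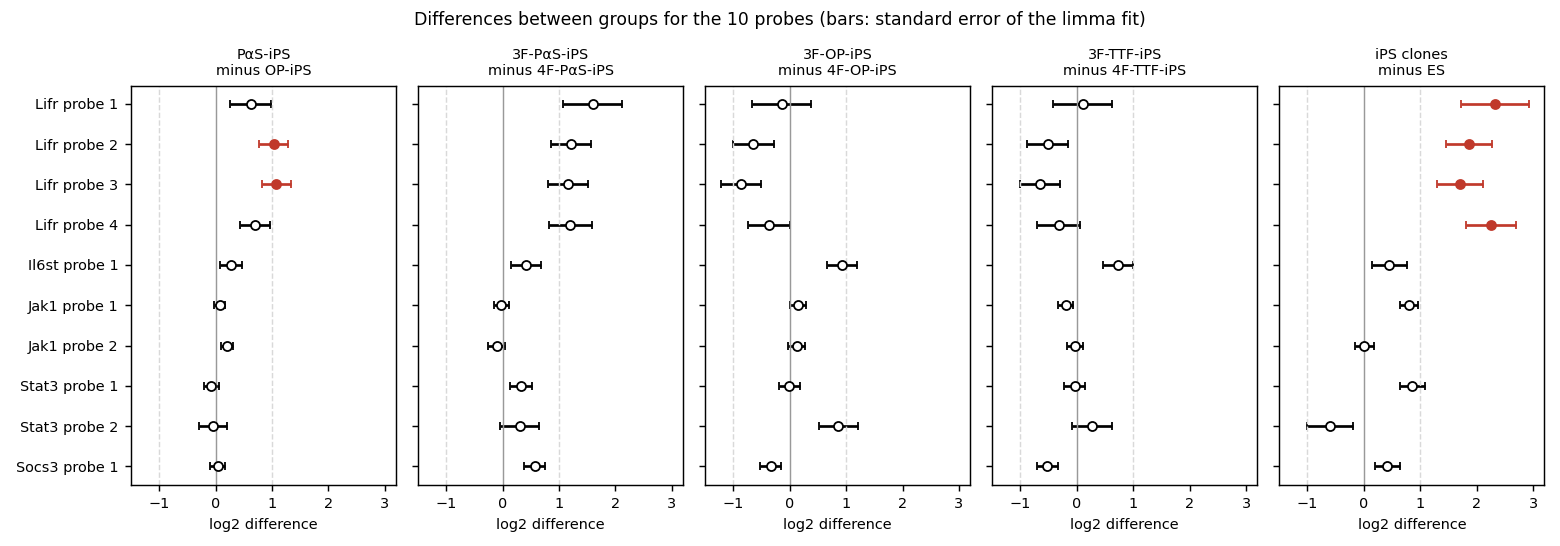
Differences between groups on the log2 scale for the 10 probes in 5 comparisons, with bars for the standard error of the limma fit; filled red points passed an adjusted p of 0.05 and the 2-fold minimum, which dashed lines mark. Lifr probes 2 and 3 passed for PαS-iPS minus OP-iPS and all 4 Lifr probes for clones minus ES, while no Lifr probe passed for 3F minus 4F, where the points lie above 0 in the PαS source and below 0 in the OP source, there on probes 1 and 4 only with clone 4F-OP-iPS #2.

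Each source array read less Socs3 and more Il6st and Jak1 than any clone, and less Lifr on every probe but probe 1 in TTF. There was 1 array for each source and so no replicate check. The source arrays lay on the slide of EB-3 and in another session than the clones. Source cells therefore cannot be told apart from slide and session in these values. Lifr was lowest in PαS cells, at -3.75, -4.97, -5.26 and -6.38 on probes 1 to 4, which is 25.5-, 21.2-, 21.0- and 17.7-fold under the mean of the clones. OP cells had -1.34, -2.70, -2.94 and -3.90, or 4.81-, 4.39-, 4.2- and 3.16-fold less. All 30 clones lay above both of these arrays on every Lifr probe. TTF had -0.64 on probe 1, above 3 of the 30 clones, but -3.92, -4.47 and -5.01 on the other 3, below them all. In TTF, then, probe 1 read 2.95-fold under the clones and probe 3 12.2-fold.

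Socs3 was 2.16 in PαS cells, 2.97 in OP cells and 2.72 in TTF, which is 8.13-, 4.63- and 5.53-fold under the mean of the clones and below each of them. Il6st was 3.50, 4.14 and 3.40, above every clone, by 2.93-, 4.59- and 2.73-fold over their mean. Jak1 probe 1 was 4.43, 3.67 and 3.84, also above every clone, by 3.32-, 1.96- and 2.22-fold. Jak1 probe 2 was 4.97-, 2.76- and 3.07-fold over the clones. Stat3 probe 1, at 3.39, 3.0 and 2.72, lay within the range of the clones in all 3 sources, while the dim probe 2 was above every clone in OP cells and TTF.

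By this count, being outside the range of all 30 clones and at least 2-fold from their mean, PαS cells were above on 3 of the 10 probes (Il6st and both Jak1), against 14.4% of all probes, and below on 5 (Lifr and Socs3), against 16.1%. OP cells were above on 3 (Il6st, Jak1 probe 2 and Stat3 probe 2), against 19.6%, and below on 5, against 16.2%. TTF were above on 4 (Il6st, both Jak1 and Stat3 probe 2), against 19.5%, and below on 4 (3 of Lifr, and Socs3), against 17.8%. Ly6a, which encodes Sca-1, was 5.58 on the PαS array against 3.54 on OP and 3.53 on TTF, whereas Pdgfra was 0.98, 1.58 and 0.59 and so was not lower in the cells sorted without it. The TTF array also carried blood cell genes, with Ptprc at 4.14 and a summed level of 279 over 7 blood genes, against 6.37 in PαS and 17.6 in OP cells, and their part in the TTF values was not tested. The clones had 0.394 to 3.16 for the blood genes, with Ptprc above background in none. A list of 4 osteoblast genes summed to 39.7 in OP cells, 2.14 in PαS cells and 0.350 in TTF. The 3 endothelial genes summed to 0.351 to 2.77 in the clones, 0.65 to 0.87 in the ES lines and at most 0.148 in the source cells. None of 7 ES cell genes was above background in PαS or OP cells, and in TTF 1 was, Gdf3.

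**Figure D4:**
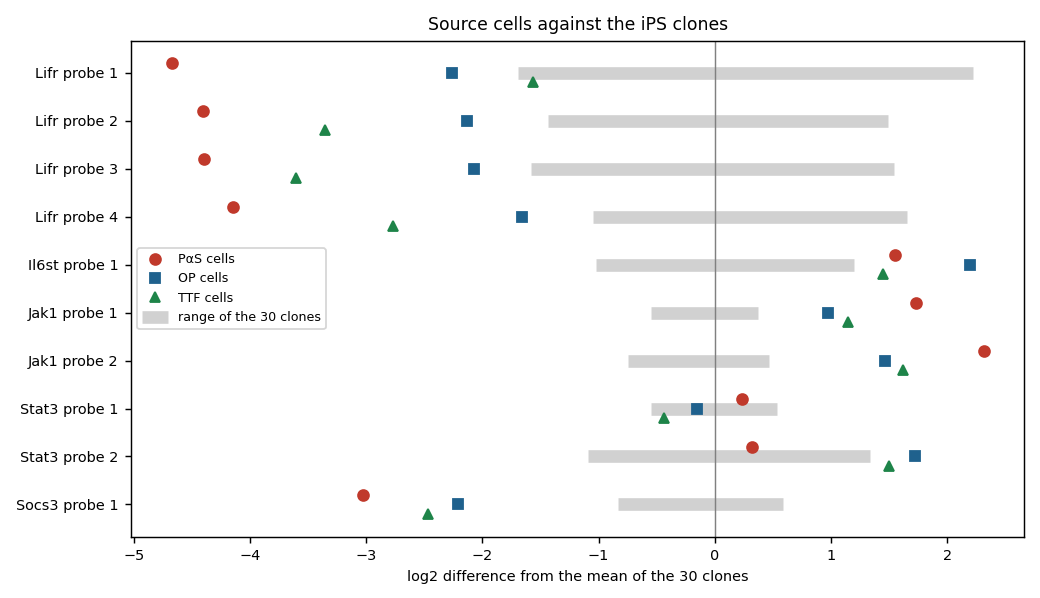
Level of each probe in PαS (circles), OP (squares) and TTF cells (triangles) as the log2 difference from the mean of the 30 clones, whose range is the grey bar. Lifr and Socs3 lie to the left of the bars, except Lifr probe 1 in TTF, and Il6st and both Jak1 probes to the right, while Stat3 probe 1 lies within.

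Over the 30 clones the members did not rise and fall together strongly. Of 10 pairs of genes, taken by their brightest probes, none passed after Benjamini-Hochberg adjustment over the pairs, and 5 had a permutation p under 0.05. Those were Lifr with Socs3 (r = 0.45, rho = 0.45), Stat3 with Socs3 (r = 0.42, rho = 0.44), Lifr with Stat3 (r = 0.40, rho = 0.44), Jak1 with Stat3 (r = 0.40, rho = 0.38) and Lifr with Il6st (r = 0.39, rho = 0.34), each with an adjusted p of 0.0667. Without the 2 clones farthest from the median these pairs did not pass either, with r = 0.36 to 0.42. As deviations from group means Jak1 with Stat3 reached r = 0.61 (adjusted p = 0.0042), and as deviations from slide means Lifr with Socs3 reached 0.54 (adjusted p = 0.0186). Lifr with Stat3 had r = 0.79 within the 10 PαS-derived, -0.01 within the 10 OP-derived (0.29 without clone 4F-OP-iPS #2) and 0.60 within the 10 TTF-derived clones, and Lifr with Socs3 had 0.75, 0.21 and 0.20, given as a description.

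Lifr and Il6st moved with the fibroblast genes. Against the log2 of their summed level Il6st had r = 0.59 (rho = 0.47, permutation p = 0.00077, adjusted p = 0.0077 over 10 relations) and Lifr r = 0.50 (rho = 0.54, p = 0.00535, adjusted p = 0.0171). Without the 2 farthest clones r was 0.49 and 0.52, as deviations from group means 0.70 and 0.47, and from slide means 0.61 and 0.40. Jak1, Stat3 and Socs3 had r = 0.09 to 0.12. Against 7 ES cell genes Lifr had r = -0.51 (rho = -0.52, adjusted p = 0.0171), -0.27 without the 2 farthest clones, -0.69 as deviations from group means, -0.47 from slide means and -0.55 without the 4 clones low in Nanog, so that the size of the pooled r rests in part on those 2 clones. Stat3 had r = -0.48 (rho = -0.74, adjusted p = 0.0171), -0.71 without them. Feeder cells and clones were not separated on these arrays, and their shares cannot be told apart.

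**Figure D5:**
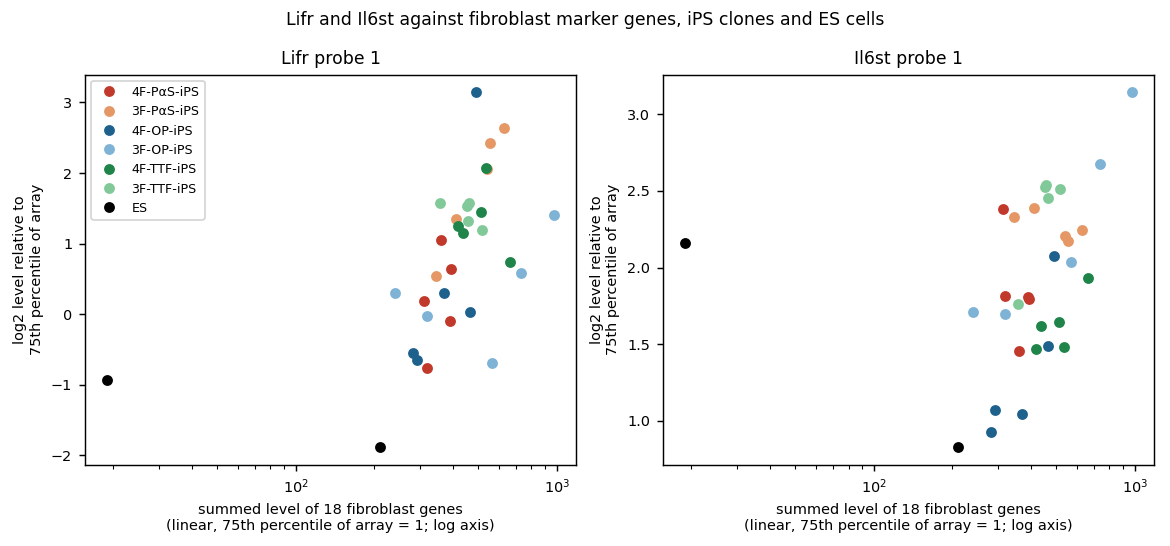
Level of Lifr probe 1 and of Il6st (log2 relative to the 75th percentile of the array) against the summed level of 18 fibroblast genes on a log axis, for the 30 clones by group and both ES lines (black). Clones with more fibroblast RNA tend to have more of both, with r = 0.50 and 0.59 over the 30 clones.

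The genes whose levels ran most like a member over the 30 clones were sought among 18414 named probes above background in all of them. For Lifr they were Arsi (r = 0.95), Tspan2 (r = 0.94) and Glipr1 (r = 0.94), and for Il6st Vasn (r = 0.92), Islr (r = 0.91) and Fxyd1 (r = 0.89). For Jak1 they were Tln1 (r = 0.79), 1700065A05Rik (r = 0.73) and Ddx58 (r = 0.73), for Stat3 Smarca2 (r = 0.78), Hipk1 (r = 0.75) and Rela (r = 0.75), and for Socs3 Ube2n (r = 0.81) and Phactr2 (r = 0.79). These are the highest of many, over clones that share slides, so that their r is given as a description.

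Of 33 other genes of the pathway, all tested and counted by their brightest probe, Socs1 and Myc passed between PαS- and OP-derived clones and between 3F- and 4F-TTF-iPS clones, and none in the other comparisons between clones. Of all probes 1.6% and 5.77% passed in these comparisons, the latter close to 2 of 33. Socs1, another inhibitor of the Janus kinases, was 2.23 on average in PαS-derived and 0.93 in OP-derived clones, a difference of 1.30 (SE 0.37, adjusted p = 0.0445), and 1.88 in 3F- against 0.26 in 4F-TTF-iPS clones, a difference of 1.62 (SE 0.52, adjusted p = 0.0452). Myc was lower by 2.34 (adjusted p = 0.0281) and by 2.85 (adjusted p = 0.0301) in the same comparisons. Tfcp2l1, a transcription factor of ES cells, passed between PαS- and OP-derived clones on 1 of its 4 probes, which is not the brightest, and its probes differed by 0.79 to 1.28. Of the 3 Myc probes 2 passed in each, while the remaining one differed by 0.07 and -0.18, and whether the 2 that passed also read the c-Myc retrovirus of the 4F clones was not tested. On the brightest probe Myc ran from -0.20 to 5.25 in 4F-OP-iPS clones. In clones made without that virus it ran from -1.43 to 3.41 in 3F-OP-iPS and from -1.46 to -0.86 in 3F-PαS-iPS. With the slide as a fixed block 0 of the 33 genes passed in either comparison, and without the 4 clones low in Nanog 0 passed between PαS- and OP-derived clones. The median of the 33 genes was -0.04 between PαS- and OP-derived clones, against 0.03 over all probes tested, and 0.11 between 3F- and 4F-TTF-iPS clones, against 0.04.

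Against ES cells 9 of the 33 genes were higher in the clones and 2 lower, where 17.2% of all probes were higher and 19.0% lower. Osmr, the receptor chain that pairs with gp130 for oncostatin M, was higher by 4.67 (adjusted p = 0.000147), the cytokine Il6 by 2.49 (adjusted p = 0.00808) and its receptor chain Il6ra, on 1 of 2 probes, by 2.37 (adjusted p = 0.00157). The lines of ES cells differed here: Osmr was -7.63 in EB-3, not above background, and -0.05 in RF8, against a mean of 0.83 in the clones, so that it was 0.88 over RF8, under 2-fold. Il6 was -8.73 in EB-3, not above background, and -3.39 in RF8, against a mean of -3.57 in the clones, so that the difference lay in EB-3 alone. Il6ra was below every clone in both lines. The other 6 were higher by 1.06 to 1.79, and for 3 of them, Jak2, Stat5a and Clcf1, named here after their values were seen, the clone mean was under 2-fold over RF8 (0.72, 0.78 and 0.97). Gbx2, a homeobox target of Stat3, was lower by 4.08 (adjusted p = 0.00143) and Socs2 by 2.40 (adjusted p = 0.00287). The median of the 33 was 0.22, against -0.11 over all probes tested. Leaving out EB-3 reduced the number that passed from 11 to 6.

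Lif itself has no probe of its name. A cDNA probe that the array describes as a leukemia inhibitory factor product (mm7, plus strand, chr11:4226323-4226382) was dim, at -4.59 to -2.97 in the clones, and -1.47 in EB-3 and -1.40 in RF8. The clones were lower by 2.42 (SE 0.30, adjusted p = 2.79e-07). It was -4.99 in PαS cells, -4.67 in OP cells and -2.69 in TTF. Whether this probe reads Lif transcripts was not tested, and LIF was also supplied in the medium.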

How the data were processed

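The deposited intensity of each spot was made by the authors with Agilent Feature Extraction, per the file headers background-subtracted and detrended within the array. The deposited table of log2 values was made by the authors in GeneSpring GX and is centred on the median of each probe; it served as an alternative. Here each processed intensity was divided by its array's 75th percentile before log2 was taken, outlier spots (54 to 152 an array) were left out and spots of a probe averaged. Probes well above background, by the deposited flags, on all arrays of at least 1 of 7 groups (27622 probes) were tested in 1 limma fit of 30 clones and 2 ES arrays (limma 3.58.1, R 4.3.3), with Benjamini-Hochberg adjustment over all of them. Adjusted p values are from this fit unless a permutation or a correlation is named. A probe passed at an adjusted p under 0.05 and at least 2-fold. The fit was tested on simulated data. Permutations moved clones between groups, over all arrangements for 5 against 5 and in 100000 resamples for 10 against 10 and for correlations (Python 3.11.15, scipy 1.17.1).

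Named were all members, the pathway genes that passed (at most 3 a direction), the 3 genes with the most similar levels to each member (1 of them is not reported here), and marker genes a result turns on. The members and the pathway and marker lists were chosen with earlier results of these data known. Alternatives were normexp (offset 50), quantile normalization, the deposited table, no filter, no fold minimum, slide or clone number as a block, other probes, clones alone, and leaving out arrays; those for source cells, and the correlations without clone 4F-OP-iPS #2, were chosen after seeing the data. Promoters are from RefSeq.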

Additional observations from a re-analysis of the deposited data

Results flagged for a closer look

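In each group of 5 clones the highest and lowest clone were set against the others for each of the member probes and the Lif-product probe, and 8 of 66 such tests placed 1 clone far from the rest, where chance gives about 1 in 20. Clone 4F-OP-iPS #2 stood above its group on all 4 Lifr probes, at 3.14, 0.82, 0.58 and -0.59, and below it on Jak1 probe 2, at 1.26. The 4 Lifr probes read the same gene and are not independent. This clone also had the lowest Pou5f1 level of the clones, at -1.96, and was 1 of the 4 low in Nanog. The part of either in its Lifr level was not tested. Between 3F- and 4F-OP-iPS clones the difference on Lifr probe 1 was -0.14 with it and 0.53 without it, and between OP- and TTF-derived clones -1.0 and -1.34.

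Clone 3F-TTF-iPS #5 had the lowest Il6st level of its group, at 1.76, against 2.46 to 2.54 in the other 4. Clone 4F-TTF-iPS #5 stood apart on Jak1 probe 2, at 2.32, and clone 3F-TTF-iPS #1 on the dim Stat3 probe 2, at -4.85.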

How the results depend on the processing

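By the brightest probe of each gene, 0 of the 5 members passed between PαS- and OP-derived clones, and 1 (Lifr) did with probe 2 or with probe 3. Between 3F- and 4F-OP-iPS clones 1 member (Il6st) passed with no fold minimum and 1 after quantile normalization, against 0, and with 1 clone or ES array left out the number was 0 to 1. Between clones and ES cells 3 members passed with no fold minimum, against 1, and leaving out an array gave 0 (without RF8) to 3 (without EB-3). Between OP- and TTF-derived clones it was 0 to 1, with 1 only without 4F-OP-iPS #2. Of the 33 pathway genes, 2 passed between PαS- and OP-derived clones, 4 with no fold minimum, 1 each with normexp, quantile normalization, no filter on dim probes, the slide as a random block and probe 2, 0 with the slide as a fixed block or without the 4 clones low in Nanog, and 0 to 4 with an array left out. Between 3F- and 4F-TTF-iPS clones 2 passed, 5 with no fold minimum, 1 each with no filter, probe 2 or without those 4 clones, 0 with normexp or with the slide as a fixed or random block, and 0 to 2 with an array left out. Between 3F- and 4F-OP-iPS clones 0 passed, 1 with no fold minimum, 1 in clones alone and 0 to 3 with an array left out. The range was 0 to 1 between PαS- and TTF-derived clones and between 3F- and 4F-PαS-iPS clones. Against ES cells 11 passed, 7 with normexp and 6 (without EB-3) to 16 with an array left out.

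Differences of 3F minus 4F between sources passed for 0 members, for 1 (Socs3) each with normexp, no filter or clones alone, and for 0 to 2 with an array left out. The Socs3 difference between 3F- and 4F-TTF-iPS clones turned from -0.52 to 0.094 with the slide as a fixed block. The clone numbers did not pair the clones: of 75 same-numbered pairs 16 had r over 0.1 (median 0.00) and 6 of 30 clones correlated best with their own number in another group. With the clone number as a replicate block, 1 member (Socs3) passed between sources and no other count moved. Pairs of members that were correlated numbered 0, and 1 each as deviations from group means, from slide means and without the 4 clones, and 3 with normexp. In source cells the values moved most with the probe: Lifr in TTF was -1.56 on probe 1 and -3.35, -3.60 and -2.77 on probes 2 to 4, Jak1 on probe 2 was 2.31 in PαS cells, 1.46 in OP cells and 1.62 in TTF, and Stat3 on probe 2 was 1.73 in OP cells and 1.5 in TTF. After quantile normalization Jak1 was 0.68 in OP cells and 0.86 in TTF. The cause of these changes was not tested. Of the other values, 275 kept direction and call, 10 gained the call and 4 lost it. The number of arrays limits precision, ES cells rest on 2 arrays and each source on 1, and Stat3 probe 2 was near background.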
